A study of Komagataella phaffii GS115 with 6 samples.

Results

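The levels of 3 genes for making redox cofactors were described across 6 RNA-seq libraries of the methylotrophic yeast Komagataella phaffii GS115, also known as Pichia pastoris. They are RIB3 (PAS_chr3_0167), a flavin adenine dinucleotide (FAD) synthetase gene (PAS_chr1-3_0240) and BNA5 (PAS_chr3_1194). They were taken by identifier from the deposited table, and all 3 were found among its 115 genes. The cells are labelled WT and were sampled at 48 h. They came from BMMY, a buffered complex medium with methanol, or from the same medium with 1% maltose, with 3 libraries for each. Methanol medium was therefore common to both groups, and it is not known here whether the cells carried a construct for the recombinant collagen that the series is about. Nothing in the labels ties the libraries to separate cultures, so the spread between them, and any p-value resting on it, may be technical.

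Flavin cofactors are built from riboflavin, which yeasts make from GTP and ribulose phosphate. RIB3 encodes dihydroxybutanone phosphate synthase, which supplies the ribulose phosphate branch, and FAD synthetase joins an adenylyl group to flavin mononucleotide (FMN) at the last step to FAD. FAD is the cofactor of the peroxisomal alcohol oxidase that starts methanol oxidation in methylotrophic yeasts. NAD, the electron acceptor of formaldehyde and formate dehydrogenases, can be made from tryptophan by the kynurenine route, in which BNA5 encodes kynureninase, the enzyme that forms hydroxyanthranilate. The names rest on similarity: the deposited Swiss-Prot matches are RIB3 of Candida albicans, a probable FAD synthase of Schizosaccharomyces pombe and BNA5 of Debaryomyces hansenii.

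The authors had selected the table on the same contrast: the smallest absolute log2 fold change in the authors' deposited table is 1.0007. The 3 genes were then chosen from that table with its values known, so their differences between media are given as a description, and no p-value below is independent evidence of one. In the authors' deposited table the log2 fold changes, maltose over BMMY, were 1.21 for RIB3, 1.06 for FAD synthetase and -1.18 for BNA5. The depth implied by counts and FPKM (fragments scaled by gene length and library size) ran from 35.3 to 76.1 M fragments per library. FPKM is a share of the library, so a level here is relative to all transcripts of the culture, and more RNA of a gene per cell and a larger part of the cells using it cannot be told apart. The FPKM values of the media did not overlap for 94.8% of the 115 genes, with 43.5% above BMMY in every maltose library and 51.3% below.

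RIB3 transcript was at its lowest in BMMY replicates 2 and 3. Its level was 193, 93.5 and 82.2 FPKM in BMMY replicates 1, 2 and 3, and 195, 196 and 278 FPKM in maltose replicates 1, 2 and 3. The groups did not overlap, but BMMY replicate 1 lay just under maltose replicates 1 and 2, and maltose replicate 3 stood above all other libraries. Counts of 2730 to 6686 lay behind these values. Counting error, given as an exact 95% Poisson interval that covers counting alone, spans 189 to 198 FPKM in BMMY replicate 1 and 190 to 199 FPKM in maltose replicate 1, so those libraries could not be told apart. The group means were 123 ± 61.1 FPKM in BMMY and 223 ± 47.6 FPKM with maltose (SD, n = 3), which is 1.81-fold higher with maltose. Against BMMY replicates 2 and 3 alone, the maltose mean was 2.54-fold higher.

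The FAD synthetase gene had the same order of libraries within BMMY at a higher level. It had 699, 343 and 310 FPKM in BMMY replicates 1, 2 and 3, and 690, 726 and 776 FPKM in maltose replicates 1, 2 and 3. The groups overlapped, because BMMY replicate 1 lay above maltose replicate 1. The means were 451 ± 216 FPKM in BMMY and 731 ± 43.2 FPKM with maltose (SD, n = 3), a 1.62-fold difference, and the maltose mean was 2.24-fold that of BMMY replicates 2 and 3. Replicate spread was unequal between the media: the coefficient of variation was 47.9% in BMMY and 5.92% with maltose. Among the 115 listed genes FAD synthetase ranked 26 by mean FPKM in BMMY and 21 with maltose, while RIB3 ranked 48 and 38.

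**Figure D1:**
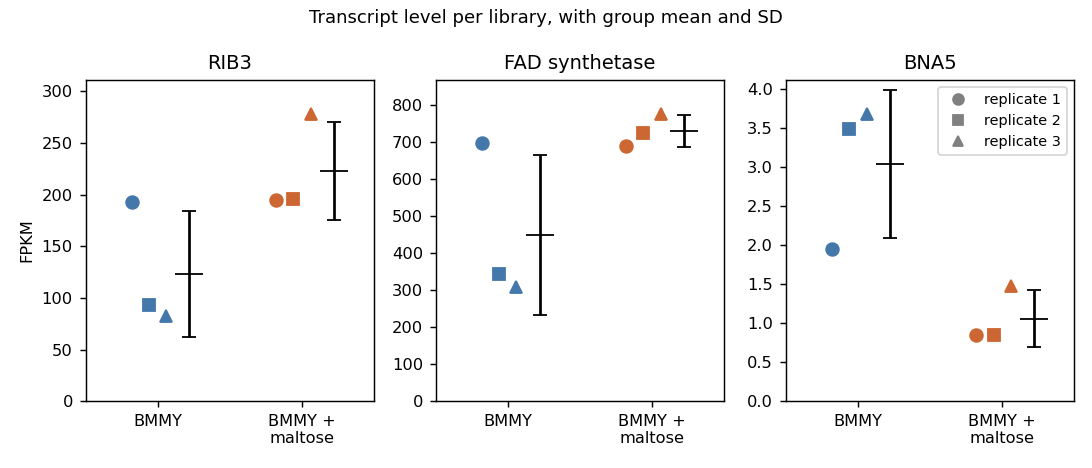
FPKM of RIB3, FAD synthetase and BNA5 in each library (points, shaped by replicate number), with the group mean and SD beside them (black bars), for BMMY and BMMY with 1% maltose. BMMY replicate 1 (circle) lies near the maltose points for RIB3 and FAD synthetase, at 193 and 699 FPKM, and BNA5 is lower with maltose in every library.

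The ratio of the 2 flavin genes was nearly fixed in 5 of the 6 libraries. It is not particular to this pair: by likeness of profile, given below, FAD synthetase ranked 6 of 114 genes for RIB3. A ratio of FPKM within one library does not depend on how libraries are scaled to each other. RIB3 stood at 0.276, 0.273 and 0.265 of the FAD synthetase level in BMMY replicates 1, 2 and 3, and at 0.282, 0.27 and 0.358 in maltose replicates 1, 2 and 3. In 5 of the 6 libraries the ratio stayed between 0.265 and 0.282, although each gene's own level differed more than 2-fold among them. Maltose replicate 3 was the exception: RIB3 was 1.42-fold above the mean of the other maltose libraries there, and FAD synthetase 1.1-fold. The mean log2 ratio was -1.88 ± 0.031 in BMMY and -1.73 ± 0.22 with maltose (SD, n = 3), a difference of 0.15 that fell to 0.024 without maltose replicate 3.

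BNA5 transcript was scarce in every library and lower with maltose. It had 1.96, 3.49 and 3.68 FPKM in BMMY replicates 1, 2 and 3, and 0.845, 0.851 and 1.48 FPKM in maltose replicates 1, 2 and 3. The groups did not overlap, and in each medium replicates of the same medium still differed: BMMY replicate 1 was low for its group and maltose replicate 3 was high. These levels rest on 144, 366 and 272 reads in BMMY and 65, 54 and 73 reads with maltose. The counting intervals of BMMY replicate 1, from 1.65 to 2.3 FPKM, and of maltose replicate 3, from 1.16 to 1.87 FPKM, overlap. The means were 3.04 ± 0.945 FPKM in BMMY and 1.06 ± 0.367 FPKM with maltose (SD, n = 3), 2.87-fold lower with maltose, and BNA5 ranked 107 of 115 genes by level in both media.

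Set against the flavin genes within a library, BNA5 was lower with maltose. The flavin genes were in the deposited table as up and BNA5 as down, so the selection favours such a gap. RIB3 was 98.8, 26.8 and 22.3 times the BNA5 level in BMMY replicates 1, 2 and 3, and 230, 230 and 187 times in maltose replicates 1, 2 and 3. The FAD synthetase level was 357, 98.4 and 84.2 times that of BNA5 in the BMMY libraries, and 816, 853 and 523 times in the maltose libraries. Neither ratio overlapped between the media, and BMMY replicate 1 lay between the other BMMY libraries and the maltose libraries in both. On the log2 scale the ratios to BNA5 were higher with maltose by 2.46 for RIB3 and 2.31 for FAD synthetase. Without BMMY replicate 1 these differences were 3.13 and 2.97.

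**Figure D2:**
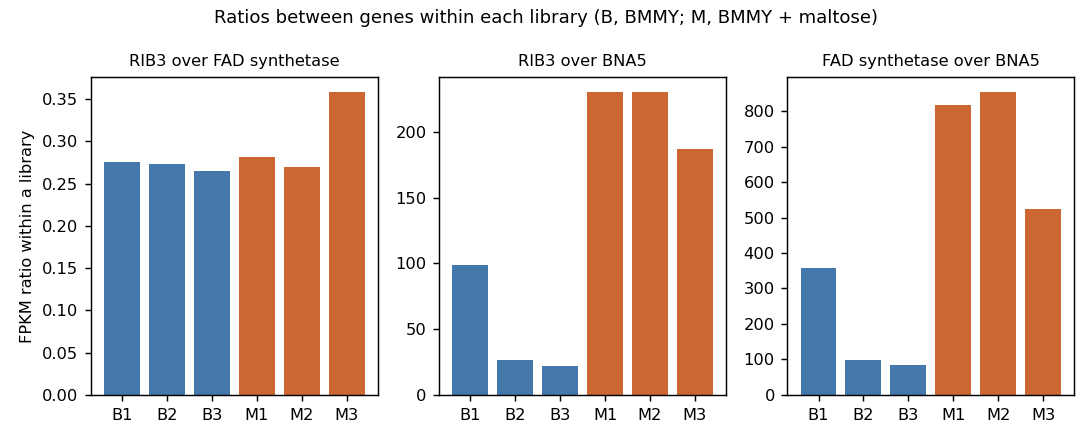
Ratio of FPKM between 2 genes within each library (bars from 0, linear axes), for BMMY replicates (B1 to B3) and maltose replicates (M1 to M3). RIB3 over FAD synthetase lies between 0.265 and 0.282 in all libraries but M3, at 0.358, while both ratios to BNA5 are higher in every maltose library than in any BMMY library.

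BMMY replicate 1 lay toward the maltose libraries for all 3 genes, and its part in the results was measured by leaving it out. It was 2.2-fold above the mean of BMMY replicates 2 and 3 for RIB3 and 2.14-fold above it for FAD synthetase, and 1.83-fold below it for BNA5. On the log2 scale it covered 86.0% of the distance from those BMMY libraries to the maltose mean for RIB3, 94.7% for FAD synthetase and 48.2% for BNA5. Among 56 tested genes with positive fold changes the median was 54.5%, and the quartiles were 27.1% and 73.8%. FAD synthetase ranked 5 and RIB3 ranked 8 of those 56 genes by this share, and FAD synthetase was among 6 genes in which the library reached the maltose range. Among 56 genes with negative fold changes the median share was 0.1%, and BNA5 ranked 8.

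**Figure D3:**
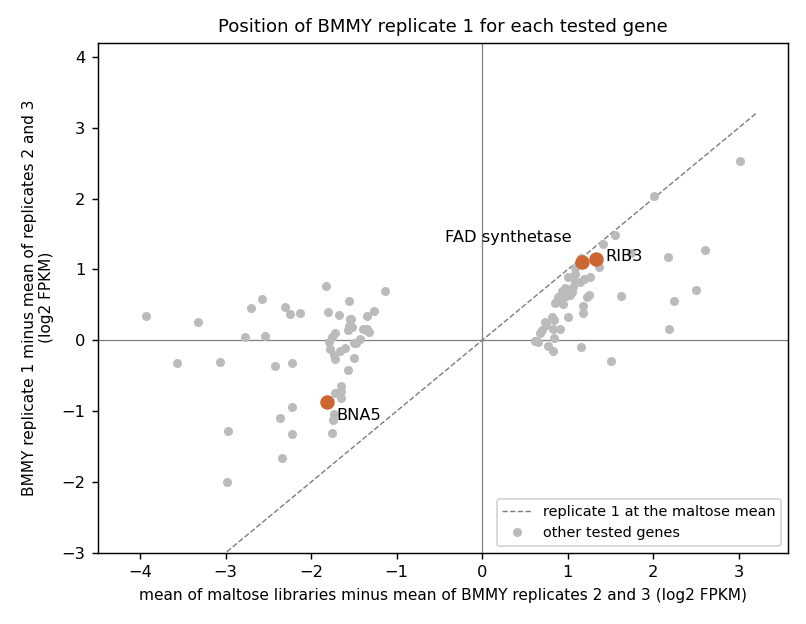
For each of the 112 tested genes (points), the difference between the maltose mean and the mean of BMMY replicates 2 and 3 (horizontal axis, log2 FPKM) and the offset of BMMY replicate 1 from the same BMMY mean (vertical axis, log2 FPKM). On the dashed line that library equals the maltose mean; FAD synthetase at 94.7% and RIB3 at 86.0% of the distance lie close to it, and BNA5 is at 48.2%.

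In edgeR's quasi-likelihood fit to all 112 genes with a mean of at least 1 FPKM, the log2 fold changes were 0.86 (SE 0.35) for RIB3, 0.70 (SE 0.32) for FAD synthetase and -1.53 (SE 0.33) for BNA5. RIB3 was called higher and BNA5 lower at a Benjamini-Hochberg adjusted p of 0.05 (edgeR adjusted p = 0.0426 and 0.00278), and FAD synthetase was not called (0.0619). Its 95% interval ran from -0.034 to 1.43 and so takes in the fold change of RIB3 as well as no difference. Of all tested genes 93.8% were called, 43.8% higher and 50.0% lower. The table was selected for change, so nothing is read from the 2 calls among 3 genes.

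The call of RIB3 was lost in each of 5 fits that left out a single library, BMMY replicate 2 or 3 or maltose replicate 1, 2 or 3, with log2 fold changes of 0.69, 0.64, 0.95, 0.94 and 0.67. Without BMMY replicate 1 the log2 fold changes were 1.34 for RIB3, 1.16 for FAD synthetase and -1.77 for BNA5, and all 3 genes were called. The scaling between libraries moved both flavin genes. With FPKM sums over the listed genes set equal, RIB3 was at 0.063 and FAD synthetase turned to -0.10, neither called. Those sums were 87161 to 123839 in BMMY and 182159 to 187189 with maltose, so setting them equal lowers every gene with maltose against BMMY. The listed genes were selected for change, so it is not known here whether their sums should be equal. With that scaling the median of all tested genes moved by -0.86. BNA5 was called lower in all 15 alternatives that could be fitted, with log2 fold changes from -2.44 to -0.96. This is not particular to BNA5: 56 genes were called lower under each scaling and with each library left out.

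**Figure D4:**
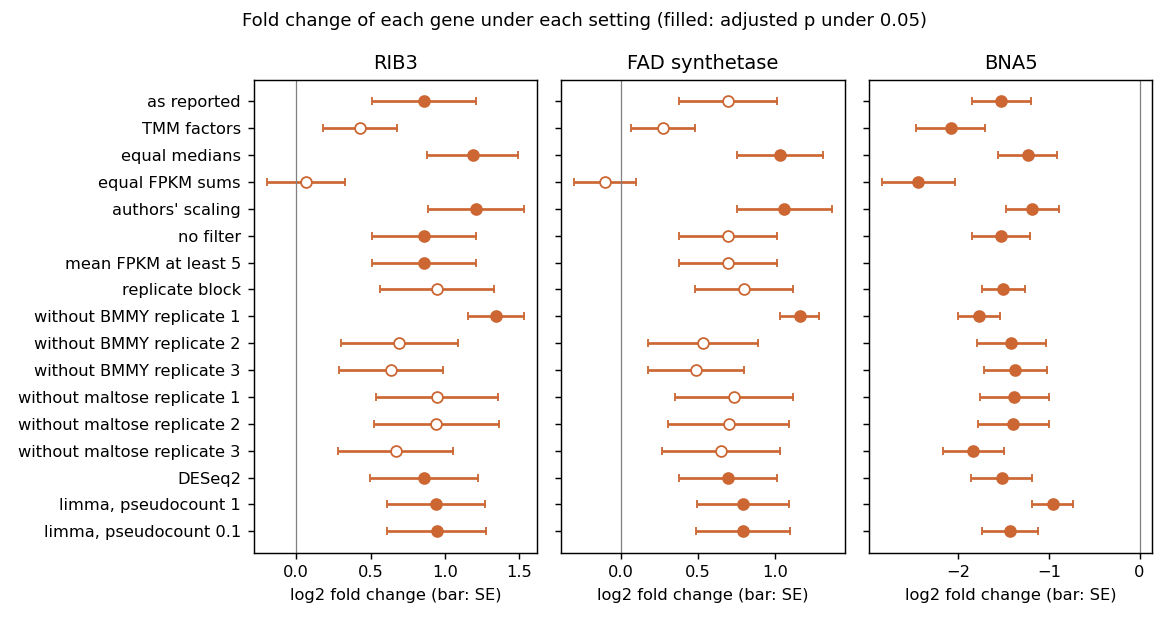
Log2 fold change, maltose over BMMY, of RIB3, FAD synthetase and BNA5 (points, with SE as bars) as reported and under each alternative setting, filled where the adjusted p is under 0.05. BNA5 lies between -2.44 and -0.96 throughout and has no value for the filter at a mean of 5 FPKM; RIB3 lies between 0.063 and 1.34 and FAD synthetase between -0.10 and 1.16.

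No other step of these routes was found among the listed genes by symbol or Swiss-Prot entry name. Of the 115 genes, 29 had no Swiss-Prot gene symbol, so such a search can miss a step. A symbol can also be a systematic name, as SPCC1235.04c is for FAD synthetase. A search for 10 symbols of riboflavin and flavin synthesis or transport matched RIB3 by symbol and FAD synthetase by its entry name, FAD1. A search for 17 symbols of NAD synthesis, salvage and transport matched BNA5. Genes outside the table were not analysed here, so nothing can be said of the other enzymes of either route. Of the 6 genes next to the members in the RefSeq gene order of assembly ASM2700v1, 0 were in the table.

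The deposited pathway term for cofactor biosynthesis covers RIB3 and BNA5 with 6 other genes, and all 6 were called higher with maltose, beside 43.8% of all tested genes. Their median log2 fold change was 0.97. The median over all tested genes, -0.35, falls between 56 genes with positive and 56 with negative fold changes, so it is no level to compare with. With equal FPKM sums ALD5 and CPA1 turned to -0.086 and -0.024. Of the 6, 1 was called with equal FPKM sums (THI5) and 3 with TMM factors (THI5, THI4 and thi4). Of the 6 genes, 4 make thiamine. THI5 (PAS_chr4_0065), for the pyrimidine part, was at 2.04 (SE 0.21), THI4 (PAS_chr3_0648), the thiazole synthase, at 1.04 (SE 0.17), the bifunctional enzyme thi4 (PAS_chr3_0843) at 0.99 (SE 0.22) and the kinase THI20 (PAS_chr3_0842) at 0.95 (SE 0.32). BNA5 was thus the 1 gene of the 8 under this term that was lower. When BMMY replicate 2, BMMY replicate 3 or maltose replicate 3 was left out, 3 of the 6 were called each time. ALD5 (PAS_chr3_0987), a mitochondrial aldehyde dehydrogenase, is the other gene that shares the tryptophan metabolism term with BNA5, and was 1.69-fold higher with maltose, from 19.9 ± 5.44 to 33.6 ± 5.72 FPKM (SD, n = 3).

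Genes whose deposited annotation mentions flavins or NAD(P) went both ways. Of 4 flavin users by these words, FAD synthetase aside, 3 were called higher and 1 lower, beside 43.8% and 50.0% of all tested genes. Their median log2 fold change was 0.94. FRE3 (PAS_chr4_0240), a ferric reductase with an FAD-binding domain, had 5.35 ± 0.616 FPKM in BMMY and 12.7 ± 4.54 FPKM with maltose, 2.37-fold higher. EBP1 (PAS_chr3_0377), an FMN-containing NADPH dehydrogenase, was 1.78-fold higher, from 9.2 ± 3.25 to 16.4 ± 3.21 FPKM. THI4, given above, was matched through the name of a binding domain. MET10 (PAS_chr4_0369), the flavoprotein part of sulfite reductase, was 3.16-fold lower, from 10.3 ± 0.943 to 3.28 ± 0.311 FPKM. With equal FPKM sums 0 of the 3 higher genes were called in the edgeR fit and MET10 was still called. The words do not find every flavoenzyme: an enzyme whose annotation does not spell out its cofactor is missed. The 3 higher and 1 lower, and their median, describe the matched genes only and give no direction for the listed flavoenzymes.

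Of 9 genes matched to NAD or NADP, 5 were called higher and 4 lower, near the 43.8% and 50.0% of all tested genes, and FRE3, EBP1, THI4 and MET10 are also among the flavin users. FDH1 (PAS_chr3_0932), the NAD-dependent formate dehydrogenase, was 1.86-fold higher, from 15074 ± 5846 to 28052 ± 1484 FPKM (SD, n = 3). These words miss enzymes too: the formaldehyde dehydrogenase gene FLD1 (PAS_chr3_1028) is among the listed genes and was not matched. The lower genes included IDP2 (PAS_chr2-1_0580), the NADP-dependent isocitrate dehydrogenase, 3.93-fold lower. A gene matched to the NAD-dependent glutamate dehydrogenase gdh-1 of Neurospora crassa (PAS_chr2-1_0311) was 3.3-fold lower, from 24.6 ± 1.8 to 7.44 ± 1.38 FPKM, and PUT2 (PAS_chr2-2_0496), which oxidises the product of proline oxidase, was 3.36-fold lower. With equal FPKM sums the remaining higher gene, a reductase matched to YJR096W of Saccharomyces cerevisiae (PAS_chr2-1_0573), turned to -0.085 and 0 of the 5 were called in the edgeR fit. A search for pyridoxal, the cofactor of kynureninase, matched 0 genes and so missed BNA5 itself, which shows that the annotation wording does not mark these enzymes.

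**Figure D5:**
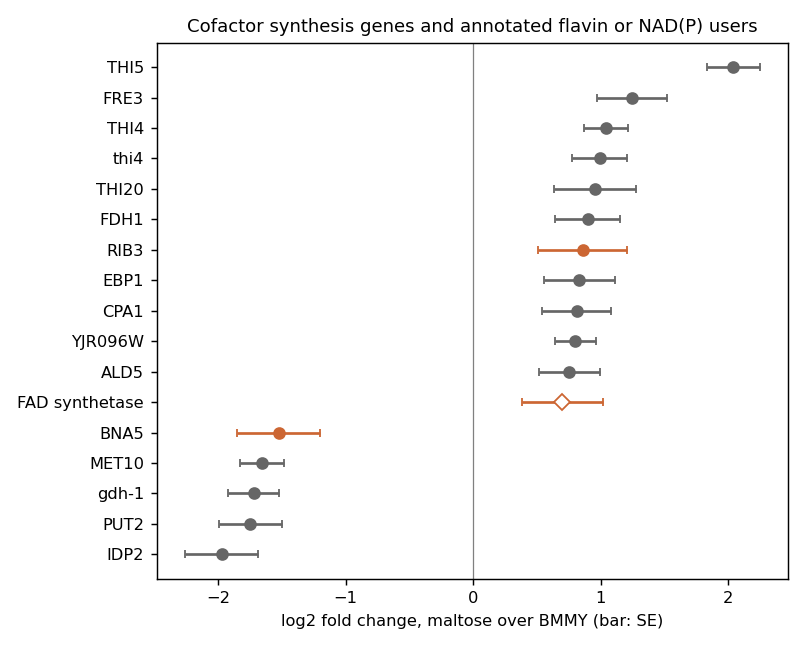
Log2 fold change, maltose over BMMY, with SE as bars, for the 3 cofactor genes (orange) and for the other listed genes under the shared pathway terms or with flavin or NAD(P) in their annotation (grey). Filled circles passed an edgeR adjusted p of 0.05 and the open diamond, FAD synthetase at 0.70, did not; BNA5 at -1.53 lies with the lower group.

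The gene whose profile over the 6 libraries was most like that of RIB3 was THI20, which phosphorylates hydroxymethylpyrimidine in thiamine synthesis. Likeness was the root mean square distance between log2 FPKM profiles, each centred on its own mean, and small distances are favoured by a table in which genes were selected for the same contrast. The distance was 0.066 for THI20, against a median of 1.21 over the other 114 genes. THI20 had 245, 124 and 116 FPKM in BMMY replicates 1, 2 and 3 and 269, 287 and 380 FPKM in maltose replicates 1, 2 and 3. RIB3 stood at 0.683 to 0.789 of it throughout, and maltose replicate 3, where RIB3 parted from FAD synthetase, was at 0.731. Next came GLY1 (PAS_chr4_0112), a threonine aldolase, and TEF4 (PAS_chr3_1071), a translation elongation factor subunit, at distances of 0.113 and 0.114, and FAD synthetase ranked 6 at 0.148.

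Nearest to FAD synthetase was PAS_chr3_1020, a gene with no Swiss-Prot gene symbol, at a distance of 0.086. ARO7 (PAS_chr4_0050), the chorismate mutase of aromatic amino acid synthesis, was at 0.089, with 380, 195 and 178 FPKM in BMMY replicates 1, 2 and 3 and 343, 391 and 468 FPKM in maltose replicates 1, 2 and 3. As for FAD synthetase, BMMY replicate 1 lay above maltose replicate 1. PAS_chr4_0589, also with no such symbol, followed at 0.103, and RIB3 ranked 10. For BNA5 the distances were larger: LAS17 (PAS_chr1-4_0623), an actin assembly factor, was at 0.23, the carbon regulator CAT8 (PAS_chr4_0540) at 0.23 and the membrane protein gene EMP65 (PAS_chr4_0452) at 0.24. LAS17 was scarcer still, with 1.43, 2.23 and 2.21 FPKM in BMMY replicates 1, 2 and 3 and 0.722, 0.633 and 0.778 FPKM in maltose replicates 1, 2 and 3. BNA5 stood at 1.17 to 1.91 times the LAS17 level. In LAS17 BMMY replicate 1 was also the lowest of its group, and the group means differed 2.75-fold, against 2.87-fold for BNA5.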

How the data were processed

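RNA was extracted and mRNA libraries were prepared with commercial kits, per the labels' protocols. The submitters' processing notes list HISAT2 2.2.1, StringTie and CASAVA, without saying what each did. Genome build, annotation and strand setting were not given in the sources used here, and coordinates are left out. The deposited table holds whole-number read counts and FPKM per library, per the file headers, with a p-value and a log2 fold change of the authors' own comparison, whose test is not stated. All 115 identifiers matched RefSeq (5040 genes), used for gene lengths and gene order.

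Depth was computed from the ratio of count to FPKM and length, as its median over genes, and replaced the library totals in edgeR 4.0.16 (R 4.3.3), with group as the only term and no TMM factors. The 112 genes whose mean reached 1 FPKM were tested, with two-sided p-values adjusted by the Benjamini-Hochberg method over all of them. SE is the absolute log2 fold change divided by the square root of F. Alternatives were other scalings, filters and leaving out each library, DESeq2 1.42.0, limma 3.58.1 and a replicate block. The scaling named equal medians used DESeq2's median-of-ratios size factors, which do not set the library medians themselves equal. The factors behind the deposited fold changes were recovered from 92 genes with counts of at least 200 to within 0.0034. They were fitted to those fold changes, so the authors' scaling gives them back nearly unchanged. It is counted among the alternatives but is no separate check.

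The members and lists were chosen with earlier results of these data known. The genes named are the members, up to 4 genes of each list in each direction by size of change, and the 3 nearest profiles per member. ALD5, CPA1, YJR096W and FLD1 were named after their values were seen. A planned promoter motif search was not run, because promoter sequences were not used here.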

Additional observations from a re-analysis of the deposited data

How the results depend on the processing

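Leaving out each library in turn gave log2 fold changes of 0.64 to 1.34 for RIB3, 0.49 to 1.16 for FAD synthetase and -1.83 to -1.37 for BNA5, with 29 to 56 genes called higher and 56 lower each time; the 29 came without BMMY replicate 2, and 49 were called with all libraries. Over all alternatives the adjusted p ran from 3.28e-06 to 0.887 for RIB3 (edgeR, DESeq2 or limma), past the threshold in 8 of 16, from 2.38e-07 to 0.74 for FAD synthetase, in 6 of 16, and from 1.92e-06 to 0.0184 for BNA5, in 15 of 15. RIB3 was not called with TMM factors (0.43) or equal FPKM sums (0.063), and was called with equal medians (1.19) and the authors' scaling (1.21). FAD synthetase was called with equal medians (1.03), with the authors' scaling (1.06), with DESeq2 (0.70) and with limma at a pseudocount of 1 (0.79) or 0.1 (0.80), and turned to -0.10 with equal FPKM sums. Genes called lower numbered 56 under each scaling. Genes called higher numbered 13 with TMM factors and 7 with equal FPKM sums. The cause was not tested. Median fold changes moved by -0.48, 0.32, -0.86 and 0.36 with TMM factors, equal medians, equal FPKM sums and the authors' scaling. BNA5 has no value with a mean of at least 5 FPKM, which it does not reach.

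Libraries with the same replicate number did not deviate together (r from -0.147 to 0.039 across 112 genes), so the numbers were not taken as pairs. With a replicate block RIB3 was at 0.95 and not called (adjusted p = 0.0574), FAD synthetase at 0.80 and BNA5 at -1.51. The log2 differences in ratios between genes within a library kept their sign without each library in turn. They ran from 0.024 to 0.23 for RIB3 over FAD synthetase. For RIB3 over BNA5 they ran from 2.06 to 3.13, and for FAD synthetase over BNA5 from 1.93 to 2.97. For both ratios to BNA5 the selection on this contrast favours that sign. Depth limits BNA5 most, with 54 to 366 reads per library.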
